A study of Mus musculus with 16 samples.

Results

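Retinoic acid (RA) drives the differentiation of embryonic stem cells (ES cells) to neurons in culture, and 9 genes that receive, carry, import, divert or destroy this signal were followed here through that differentiation. They are the nuclear receptors Rara, Rarb and Rarg, the cytoplasmic RA-binding proteins Crabp1 and Crabp2, the retinol transporter Stra6, the retinaldehyde reductase Dhrs3 and the RA-degrading enzymes Cyp26a1 and Cyp26b1. They were taken by gene name from a table of 27807 mouse genes, in which each name occurred and had an identifier of its own. All 9 passed the filter on low values, a mean of at least 10 normalised counts over the libraries, as did 16124 genes in all.

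Per the study, polyadenylated RNA was sequenced from 2 independent wild-type lines (WT, genotype Taf4+/+) and 2 independent mutant lines (KO, Taf4a-/-). The product of Taf4a is part of TFIID, a general transcription complex that binds core promoters. The lines came from blastocysts of crosses between Taf4a+/- mice. Libraries were made from undifferentiated ES cells grown on inactivated mouse embryonic fibroblast feeders (ES) and from embryoid bodies, which are floating aggregates of differentiating cells, at stages labelled EB4, EB5 and EB8. RA was absent at ES and EB4, had been present for a day at EB5, and was still present at EB8, whose cells the labels call neural precursors. This gave 8 groups of 2 libraries, 16 in all, and the cells of both genotypes had the same medium and treatment.

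RA is made from retinol in 2 enzymatic steps, and the intermediate retinaldehyde can be turned back to retinol by Dhrs3. Inside the cell RA is carried by Crabp proteins to the nucleus or to enzymes of the Cyp26 family, which oxidise it to inactive forms. In the nucleus it binds RAR proteins, which sit with a partner RXR on response elements built of repeated six-base half-sites. Several genes of the pathway are known to be under RAR control themselves, so that the response to RA includes its own receptors and its own degradation. In the embryo this circuit patterns the hindbrain and spinal cord.

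To show the sequences through which such control is known to act, the surroundings of the annotated transcript starts were searched for 2 half-sites in the same orientation. The half-site AGGTCA and its known forms AGTTCA together with GGTTCA as well as GGGTCA were searched on both strands, with a spacer of 5 bases (called DR5), 2 bases (DR2) or 1 base (DR1), within 5000 bases of a start. A DR5 lay near 4 of the 9 genes, against 6.47% of the 16094 tested genes that have an annotated position, and these 4 were the 3 receptors and Cyp26a1. A DR2 lay near Crabp2, Cyp26a1, Rarg and Stra6 (18.2% of genes) and a DR1 near Crabp1, Rara and Rarg (12.8%). No DR1, DR2 or DR5 of these letters lay in the windows of Dhrs3 and Cyp26b1. A gene had a median of 3 annotated starts, and these genes had between 1 (Cyp26a1 and Crabp1) and 12 (Stra6), so that the searched length differed between genes. The DR5 sites, and the DR2 upstream of Crabp2 as an example of the shorter spacing, are printed with 20 bases on each side and the position of their midpoint relative to the nearest annotated start, 5′ to 3′ on the strand that carries the half-sites, from build NCBI37 (mm9). Capitals mark the half-sites.
Rarb, position -49, chr14:17408007-17408063, minus strand: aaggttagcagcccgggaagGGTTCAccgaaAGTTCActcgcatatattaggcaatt
Rara, position -396, chr11:98821302-98821358, plus strand: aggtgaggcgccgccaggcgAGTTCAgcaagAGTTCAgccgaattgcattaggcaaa
Rarg, position -479, chr15:102081228-102081284, minus strand: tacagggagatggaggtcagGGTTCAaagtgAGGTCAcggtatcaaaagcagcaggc
Cyp26a1, position -24, chr19:37772246-37772302, minus strand: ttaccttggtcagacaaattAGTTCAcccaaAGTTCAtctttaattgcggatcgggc
Cyp26a1, position -1891, chr19:37770379-37770435, plus strand: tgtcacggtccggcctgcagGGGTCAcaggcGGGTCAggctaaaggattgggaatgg
Crabp2, position -1135, chr3:87751427-87751480, plus strand: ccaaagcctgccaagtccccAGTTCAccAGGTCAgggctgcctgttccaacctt

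The Rarg DR5 shares its first half-site with the DR1 counted for that gene. In the RefSeq promoter windows of build GRCm38.p6, which cover 250 bases before and 50 after a start and matched 8 of the 9 genes, a DR5 was found for Cyp26a1 and Rarb and in 0.0974% of all 32851 windows. A match is a description of letters and was not tested for binding.

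The genes lie on 8 chromosomes. The receptors are Rara (ENSMUSG00000037992, chr11:98789132-98836256), Rarb (ENSMUSG00000017491, chr14:17263356-17651381) and Rarg (ENSMUSG00000001288, chr15:102065369-102087948). The carriers and the transporter are Crabp1 (ENSMUSG00000032291, chr9:54612555-54620917), Crabp2 (ENSMUSG00000004885, chr3:87752588-87757298) and Stra6 (ENSMUSG00000032327, chr9:57911595-58001803). The enzymes are Dhrs3 (ENSMUSG00000066026, chr4:144482730-144518112), Cyp26a1 (ENSMUSG00000024987, chr19:37772298-37776018) and Cyp26b1 (ENSMUSG00000063415, chr6:84521938-84543740). All are protein-coding, and no exon of another annotated gene overlaps their exons on either strand.

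Library depth was 32631020 to 40711826 reads in the 4 ES libraries and 22442118 to 27685306 in the 12 embryoid body libraries, so that depth and the step from ES to EB4 cannot be told apart. Taf4a itself had 1591 to 1960 normalised counts in WT and 1973 to 2400 in KO libraries. A count per gene does not resolve the deleted exons, so it does not check the genotype labels. WT ES replicate 2 stood apart from the other WT libraries in its sex-chromosome genes (Ddx3y, on the Y chromosome, was at 0 there and at 174 to 1237 in the other 7). The calls from ES to EB4 in WT are also given without it, and other results that use it are given only with it. Genes of chromosome X had a median level of 0.47 (log2, relative to the mean of all libraries) in that library, 0.36 to 0.55 in the 4 KO replicate 2 libraries and -0.26 to -0.15 in the other 11. Genes of chromosome 8 were at 0.38 to 0.41 in the WT replicate 1 libraries of EB4, EB5 and EB8 and at -0.16 to 0.03 in the other 13, WT ES replicate 1 among them. In WT a replicate number thus did not go with the same levels of these chromosomes in ES and in the embryoid bodies. No WT embryoid body library had the Ddx3y or chromosome X level of WT ES replicate 2. The 2 WT libraries of an embryoid body stage may thus come from 1 line, and the line of each library was not tested. None of the 9 genes lies on chromosome 8 or X, and the part of these shifts in the results was not tested. In the KO libraries Ddx3y was at 0 to 35.9, so that genotype and this difference of the lines cannot be told apart. Genes of chromosome 11, which holds Rara, had a median level of 0.18 to 0.27 in the 4 KO replicate 1 libraries and -0.13 to 0.03 in the other 12. Tests weigh each difference against the spread between the 2 libraries of a group, and this spread may hold less than that between independent lines. Within KO, and within the WT embryoid bodies, libraries of the same number deviated together. A fit with that number as a block within each genotype was therefore added after the data were seen for the steps between stages, and its values stand beside a result where a call changed.

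**Figure D1:**
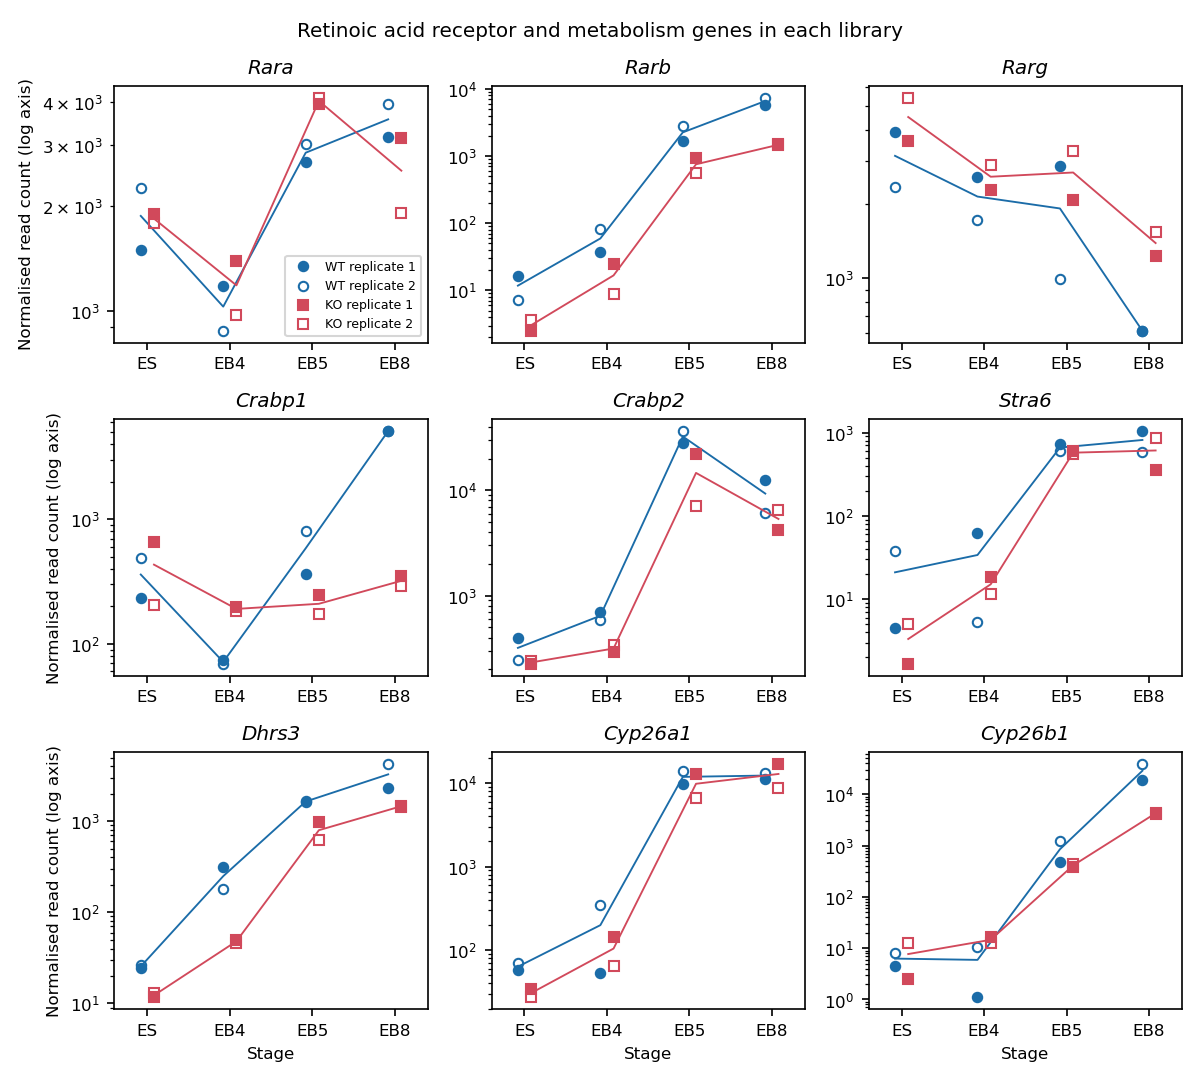
Normalised read count (vertical, log axis) of each gene at each stage (horizontal) in the 16 libraries, with circles for WT and squares for KO, filled for replicate 1 and open for replicate 2, and lines through the means of the 2 libraries of a group. Between EB4 and EB5 every gene but Rarg moves up in WT. At EB8 the KO libraries lie below the WT libraries for Rarb, Crabp1, Dhrs3, Cyp26b1 and, by a narrow margin, Rara.

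The first day of RA, EB5 against EB4, was the largest step for most of these genes. In WT 8 of the 9 rose, all but Rarg, against 2.59% of all genes tested that rose (limma on log2(normalised count + 1), adjusted p under 0.05 over all 16124 genes). In KO 7 of the 9 rose, all but Rarg and Crabp1, against 1.82% of all genes. The median log2 change of the 9 was 5.03 in WT and 4.73 in KO, while the median over all genes tested was -0.01 and 0.01. Values in this text are normalised read counts, the reads of a gene divided by a size factor of its library, unless another scale is named. In bulk RNA of embryoid bodies, fewer cells of a type and less RNA per cell cannot be told apart. The 16 libraries hold no EB5 or EB8 group without RA, so RA and the further time in culture cannot be told apart either.

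Of the receptors, Rarb changed most over this day. Rarb, which is itself a classical RA target, had 37.3 and 81.5 counts in the WT EB4 libraries and 1689 and 2819 at EB5, a log2 change of 5.28 ± 0.53 (SE, limma adjusted p = 0.000152). In KO it had 24.5 and 8.93 counts at EB4 and 942 and 567 at EB5, a log2 change of 5.52 ± 0.53 (adjusted p = 0.000153). The libraries of EB4 and EB5 were far apart in both genotypes, and the difference between the rises, 0.24 (95% interval -1.39 to 1.87), was not past the threshold. Rara, the widely expressed receptor, had 1184 and 877 counts in WT at EB4 and 2688 and 3018 at EB5. Its KO libraries went from 1395 and 978 to 3932 and 4107. Rara thus gained 1.48 ± 0.27 on the log2 scale in WT (limma adjusted p = 0.00889) and 1.78 ± 0.27 in KO (adjusted p = 0.00383). Both KO libraries at EB5 lay above both WT libraries, one of them with the high level of chromosome 11, whose part was not tested, and the difference of 0.50 at EB5 did not pass (limma adjusted p = 0.326). The rise of Rara was lost without WT EB4 replicate 2 (adjusted p 0.0619), without WT EB5 replicate 2 (0.0968) and in KO without KO EB4 replicate 2 (0.0512).

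Rarg, the receptor with the highest level in the ES cells, did not pass in either genotype. Its WT libraries held 2570 and 1729 counts at EB4 and 2854 and 992 at EB5. Its KO libraries held 2279 and 2897 at EB4 and 2083 and 3302 at EB5. The log2 changes were -0.32 (95% interval -1.26 to 0.61) in WT and 0.03 (-0.91 to 0.96) in KO, and the libraries of the stages overlapped in both genotypes.

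Of the binding proteins, Crabp2 rose in both genotypes and Crabp1 rose in WT and did not pass in KO. Crabp2, the carrier known to hand RA to the receptors, had 706 and 581 counts in WT at EB4 and 28139 and 36590 at EB5. In KO it went from 289 and 341 counts to 22132 and 7081. The log2 changes were 5.64 ± 0.47 (limma adjusted p = 3.73e-05) and 5.31 ± 0.47 (adjusted p = 7.39e-05), and at EB5 Crabp2 had the highest level of the 9 genes per kilobase of exon, with means of 24481 in WT and 11049 in KO. The 2 KO libraries at EB5 differed by more than the WT libraries did, and both lay below them.

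Crabp1, a carrier often associated with RA breakdown and with developing hindbrain and neural crest, had a smaller rise. It had 74.5 and 68.6 counts in WT at EB4 and 365 and 804 at EB5, a log2 change of 2.90 ± 0.51 (limma adjusted p = 0.00673). In KO it had 196 and 185 counts at EB4 and 247 and 173 at EB5, a log2 change of 0.11 (95% interval -0.99 to 1.22). The WT stages did not overlap and the KO stages did. The difference between these changes was -2.79 (95% interval -4.35 to -1.23), with an unadjusted p of 0.00205 by limma and an adjusted p of 1, so that it was not past the threshold over all genes. Without WT EB5 replicate 2 the rise in WT had an adjusted p of 0.0984.

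The genes of uptake and reduction, Stra6 and Dhrs3, rose in both genotypes. Stra6, the membrane receptor that brings in retinol from its plasma carrier, had 62.5 and 5.36 counts in WT at EB4 and 722 and 597 at EB5. The KO libraries held 18.7 and 11.5 counts at EB4 and 599 and 547 at EB5. The log2 changes were 5.03 ± 1.01 in WT (limma adjusted p = 0.0157) and 5.19 ± 1.01 in KO (adjusted p = 0.0182), with the largest error of the 9 genes. Low counts of 5 to 57 reads per library at EB4 lie behind them in WT and 9 to 16 in KO. Leaving out any library but WT EB4 replicate 1 took the adjusted p past the threshold, to between 0.083 and 0.101 in WT and between 0.0665 and 0.122 in KO.

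Dhrs3, which lowers RA supply by returning retinaldehyde to retinol, had 318 and 181 counts in WT at EB4 and 1674 and 1619.7 at EB5. In KO it had 50.2 and 45.9 counts at EB4 and 979 and 616 at EB5. The log2 changes were 2.77 ± 0.34 (limma adjusted p = 0.000589) and 3.99 ± 0.34 (adjusted p = 6.34e-05). At both stages each KO library lay below each WT library. The difference between the rises, KO minus WT, was 1.21 (95% interval 0.16 to 2.27, unadjusted p = 0.0274 by limma) and was not past the threshold over all genes (adjusted p = 1).

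The degrading enzymes rose in both genotypes. Cyp26a1, the enzyme most quickly induced by RA in many cells, had 53.7 and 344 counts in WT at EB4 and 9699 and 13968 at EB5. In KO it went from 144 and 65.1 counts to 12873 and 6704. The log2 changes were 6.40 ± 0.67 in WT (limma adjusted p = 0.000184) and 6.57 ± 0.67 in KO (adjusted p = 0.000224), and at EB5 the libraries of the genotypes overlapped. The WT value was 5.08 without WT EB4 replicate 1 and 7.73 without WT EB4 replicate 2, and both passed. Cyp26a1 carries 2 DR5 in the windows searched, printed above. Cyp26b1, a second enzyme with the same reaction and prominent in hindbrain and limb, had 1.10 and 10.7 counts in WT at EB4, from 1 and 10 reads, and 481 and 1216 at EB5. In KO it had 16.4 and 12.8 counts at EB4 and 383 and 438 at EB5. The log2 change in WT was 7.27 ± 0.78 (limma adjusted p = 0.000231), or 6.03 without the library of 1 read. In KO it was 4.73 ± 0.78 (adjusted p = 0.0064). The difference of -2.54 (95% interval -4.95 to -0.13) had an adjusted p of 1. The KO rise was lost without KO EB4 replicate 2 (adjusted p 0.0598), without KO EB5 replicate 1 (0.0572) and without KO EB5 replicate 2 (0.0512).

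Of the changes over the first day of RA, the difference between genotypes passed for 0 of the 9, against 0% of all genes (limma). Unadjusted p was under 0.05 for 3 of them, Crabp1, Dhrs3 and Cyp26b1, against 478 of all 16124 genes. edgeR and DESeq2 on the recovered reads called 0 and 0 of the 9, against 0 of 16124 and 2 of 27807 genes.

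**Figure D2:**
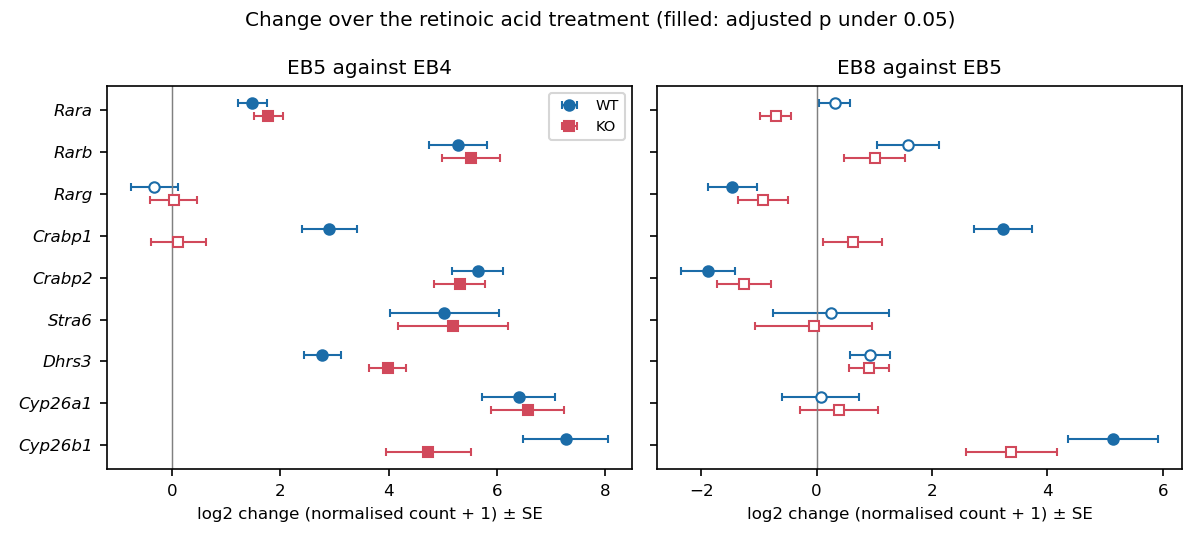
log2 change of each gene (normalised count + 1, horizontal) with its SE for EB5 against EB4 (left) and EB8 against EB5 (right), in WT (circles) and KO (squares), filled where the limma adjusted p was under 0.05. On the left 8 WT and 7 KO symbols are filled, and on the right 4 WT symbols and no KO symbol.

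From EB5 to EB8, with RA still present, the 9 genes moved in different directions in WT. Crabp1 and Cyp26b1 rose and Crabp2 and Rarg fell, that is 2 higher against 5.82% of all genes and 2 lower against 4.62% (limma). edgeR called 5 there, with Rarb besides, against 1605 of all 16124 genes. DESeq2 called 6, with Rarb and Dhrs3, against 2530 of 17564 genes. In KO 0 of the 9 passed, against 0.738% of all genes. Unadjusted p (limma) was under 0.05 for 4 of them there (Rara, Crabp2, Dhrs3 and Cyp26b1), against 2065 of all 16124 genes. edgeR called 1 (Cyp26b1), against 83 of 16124 genes, and DESeq2 2 (Crabp2 and Cyp26b1), against 670 of 16485. The comparisons share the EB5 libraries with those of the first day.

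Cyp26b1 reached 18735 and 38733 counts in WT at EB8, from 481 and 1216 at EB5, a log2 change of 5.14 ± 0.78 (limma adjusted p = 0.0018). In KO it reached 4198 and 4334 counts from 383 and 438, a log2 change of 3.38 ± 0.78 (adjusted p = 0.0798), with no overlap of the stages. The change in KO passed with edgeR (0.0239), with DESeq2 (2.46e-07), with a pseudocount of 5 (0.0168), after quantile normalisation (0.0337) in a fit of the compared groups only (0.0252) and with the replicate block within genotype (0.0128). Crabp1 reached 5086 and 5116 counts in WT, from 365 and 804, which is a rise of 3.23 ± 0.51 on the log2 scale (limma adjusted p = 0.00217). In KO it held 351 and 290 counts at EB8, after 247 and 173 at EB5, a log2 change of 0.63 (95% interval -0.47 to 1.73). The WT libraries at EB8 thus stood far above every other library of Crabp1 in the series, the highest of which held 804 counts.

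Crabp2 fell in WT from 28139 and 36590 counts to 12556 and 6037, with -1.88 ± 0.47 on the log2 scale (limma adjusted p = 0.0235). In KO it went from 22132 and 7081 to 4185 and 6491, a log2 change of -1.26 ± 0.47 (adjusted p = 0.261). Without WT EB5 replicate 1, WT EB5 replicate 2 or WT EB8 replicate 2 the fall in WT had adjusted p-values of 0.0887, 0.111 and 0.206. Rarg fell in WT from 2854 and 992 counts to 612 and 611, with -1.46 ± 0.43 on the log2 scale (limma adjusted p = 0.0499), and had 1234 and 1548 counts in KO at EB8, a log2 change of -0.92 ± 0.43 (adjusted p = 0.398). The fall of Rarg in WT was at the edge of the threshold and was lost without WT EB5 replicate 1 (0.41), WT EB8 replicate 1 (0.158) and WT EB8 replicate 2 (0.187).

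Rarb reached 5798 and 7403 counts in WT at EB8 and 1461 and 1487 in KO, log2 changes from EB5 of 1.59 ± 0.53 (limma adjusted p = 0.0809) and 1.01 ± 0.53 (adjusted p = 0.473). The rise of Rarb in WT passed with a pseudocount of 5 (0.0473), in a fit of the compared groups only (0.0286), with the replicate block within genotype (0.035), with edgeR (0.0314) and with DESeq2 (0.0042). Every EB8 library of Rarb lay above every EB5 library of its genotype. Rara had 3166 and 3949 counts in WT and 3153 and 1914 in KO, log2 changes of 0.31 ± 0.27 (adjusted p = 0.535) and -0.71 ± 0.27 (adjusted p = 0.278). Cyp26a1 did not pass, with 11283 and 13264 counts in WT and 16825 and 8829 in KO, and log2 changes of 0.07 (95% interval -1.39 to 1.53) and 0.39 (-1.07 to 1.85). Dhrs3 reached 2304 and 4243 counts in WT and 1486 and 1442 in KO, log2 changes of 0.92 ± 0.34 and 0.91 ± 0.34 (limma adjusted p = 0.112 and 0.268), and its change in WT passed with DESeq2 (0.034). Stra6 had 1046 and 581 counts in WT and 352 and 865 in KO, with log2 changes of 0.25 (95% interval -1.95 to 2.44) and -0.05 (-2.25 to 2.14).

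The difference between genotypes in the change from EB5 to EB8 passed for 0 of the 9, against 0.781% of all genes (limma). It was -2.61 ± 0.72 for Crabp1 (unadjusted p = 0.00329, adjusted p = 0.148) and -1.02 ± 0.38 for Rara (unadjusted p = 0.0201, adjusted p = 0.355). These were the only 2 with an unadjusted p under 0.05, against 1568 of all 16124 genes. edgeR called 0, against 112 of all 16124 genes, and DESeq2 called 1, Crabp1 (adjusted p 0.0193), against 499 of 16485 genes.

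Before RA, from ES to EB4, Dhrs3 and Rarb rose in WT and Crabp1 and Rara fell, that is 2 higher against 8.98% of all genes and 2 lower against 7.57% (limma). In KO 1 of the 9 rose, Dhrs3, against 2.51% of all genes, and 0 fell. Dhrs3 had 24.6 and 26.3 counts in the WT ES libraries, a log2 change to EB4 of 3.19 ± 0.34 (adjusted p = 0.000461), and 11.6 and 12.9 in KO ES, a log2 change of 1.89 ± 0.34 (adjusted p = 0.0169). Rarb had 16.4 and 7.18 counts in WT ES and 2.49 and 3.57 in KO ES, with log2 changes to EB4 of 2.24 ± 0.53 (limma adjusted p = 0.0152) and 1.99 ± 0.53 (adjusted p = 0.059). The KO ES values of Rarb come from 3 and 5 reads. With the replicate block within genotype 3 of the 9 rose in KO, against 872 of all 16124 genes. The 3 were Dhrs3, Rarb (adjusted p 0.0255) and Cyp26a1 (0.0453). Crabp1 had 235 and 485 counts in WT ES, a log2 change of -2.22 ± 0.51 (adjusted p = 0.0126), and 657 and 207 in KO ES, a log2 change of -0.95 ± 0.51 (adjusted p = 0.303). Rara had 1497 and 2259 counts in WT ES, a log2 change of -0.85 ± 0.27 (adjusted p = 0.0499), and 1903 and 1787 in KO ES, a log2 change of -0.66 ± 0.27 (adjusted p = 0.184). The fall of Rara in WT was at the edge of the threshold. It was lost with a pseudocount of 0.1, with no filter, after quantile normalisation, in a fit of the compared groups only and with edgeR. In WT edgeR called 3 (Rarb, Crabp1 and Dhrs3), against 2647 of 16124 genes. DESeq2 called 5, with Rara and Cyp26a1 besides, against 3908 of 17564 genes.

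Without WT ES replicate 2, the library that stood apart, only the rise of Dhrs3 was called in WT, and Rarb, Crabp1 and Rara had adjusted p-values of 0.0899, 0.0808 and 0.259. Without WT EB4 replicate 2 they had 0.113, 0.0631 and 0.245, and without WT EB4 replicate 1 Rara had 0.0626. The rise of Dhrs3 in KO was lost when any of its 4 libraries was left out (adjusted p 0.0762 to 0.128). The other 5 genes did not pass in either genotype. Rarg had 3936 and 2358 counts in WT ES and 3625 and 5424 in KO ES, Crabp2 395 and 243 against 223 and 241, and Cyp26a1 57.3 and 69.4 against 34.0 and 27.2. Stra6 and Cyp26b1 were near the limit of detection in ES cells, with 2 to 47 and 3 to 18 reads per library. The difference between genotypes in the change from ES to EB4 passed for 0 of the 9, against 0% of all genes (limma). Unadjusted p was under 0.05 for 1, Dhrs3, with a difference of -1.30 ± 0.49 (0.0198), against 1129 of all 16124 genes. edgeR and DESeq2 called 0 and 0 of the 9, against 0 of 16124 and 121 of 16485 genes.

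The genotypes were compared at each stage to ask what the loss of Taf4a does to these genes. In ES cells the test passed for 0 of the 9, against 0% of all genes (limma). Unadjusted p was under 0.05 for 2, against 1846 of all 16124 genes. They were Rarb (16.4 and 7.18 counts in WT, 2.49 and 3.57 in KO) and Dhrs3 (24.6 and 26.3 in WT, 11.6 and 12.9 in KO). edgeR and DESeq2 called 0 and 0 of the 9, against 0 of 16124 and 465 of 15407 genes. At EB4 1 was lower in KO, Dhrs3, against 3.37% of all genes lower, and 0 were higher, against 2.75% higher. The log2 change of Dhrs3 was -2.30 ± 0.34 (limma adjusted p = 0.00742), the KO mean being 19.3% of the WT mean, and without KO EB4 replicate 2 its adjusted p was 0.0927. Rarb (-1.82 ± 0.53, adjusted p = 0.0629) and Crabp1 (1.40 ± 0.51, adjusted p = 0.121) did not pass there with limma. At EB5 0 of the 9 passed, against 4.34% of all genes (limma). Unadjusted p was under 0.05 for 4 (Rarb, Crabp1, Crabp2 and Dhrs3), against 3342 of all 16124 genes. All 4 were lower in KO, by 1.08 to 1.58 on the log2 scale. edgeR called 0 there, against 603 of all 16124 genes, and DESeq2 3, against 1764 of 15946 genes. The 3 were Rarb, Crabp1 and Dhrs3.

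At EB8 4 of the 9 were lower in KO, against 12.5% of all genes, and 0 were higher, against 10.4%. Crabp1 showed the largest difference, with 351 and 290 counts in KO against 5086 and 5116 in WT, which is -3.99 ± 0.51 on the log2 scale (limma adjusted p = 0.000285) and a KO mean of 6.28% of the WT mean. Cyp26b1 had 4198 and 4334 counts in KO against 18735 and 38733 in WT, a log2 change of -2.66 ± 0.78 (adjusted p = 0.0285) and a KO mean of 14.8% of WT. Rarb had 1461 and 1487 counts in KO against 5798 and 7403 in WT, a log2 change of -2.15 ± 0.53 (adjusted p = 0.0123) and a KO mean of 22.3% of WT. Dhrs3 had 1486 and 1442 counts in KO against 2304 and 4243 in WT, a log2 change of -1.09 ± 0.34 (adjusted p = 0.0372) and a KO mean of 44.7% of WT. For each of these 4 genes the KO libraries lay below both WT libraries.

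Only the call of Crabp1 held whichever of the 4 EB8 libraries was left out. Without WT EB8 replicate 2 the adjusted p-values were 0.0844 for Rarb, 0.176 for Cyp26b1 and 0.298 for Dhrs3. Without KO EB8 replicate 1 they were 0.0621, 0.109 and 0.121, and without KO EB8 replicate 2 they were 0.0546, 0.0993 and 0.13. Without WT EB8 replicate 1 Cyp26b1 had 0.0501. Dhrs3 was also lost after upper-quartile rescaling (0.0633), with no filter on low values (0.0519) and in a fit of the EB8 groups only (0.0506), and Cyp26b1 with a pseudocount of 0.1 (0.0586).

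The remaining 5 genes did not pass at EB8. Rarg was the only one of them with an unadjusted p under 0.05, at 1234 and 1548 counts in KO against 612 and 611 in WT, a log2 change of 1.18 ± 0.43 (limma adjusted p = 0.0677). The libraries did not overlap, and it passed after upper-quartile rescaling (0.0468), after quantile normalisation (0.0352), in a fit of the EB8 groups only (0.0144) and with DESeq2 (0.0324). Cyp26a1 gave a log2 change of -0.01 (95% interval -1.46 to 1.45), Crabp2 -0.74 (-1.75 to 0.27), Stra6 -0.50 (-2.69 to 1.70) and Rara -0.53 (-1.11 to 0.06). Cyp26a1 and Cyp26b1, which share a reaction, thus had overlapping and non-overlapping genotypes at the same stage, and the difference between these genes was not tested. Rara lay lower in both KO libraries than in either WT library, by a narrow margin in KO replicate 1 (3153 against 3166), the library with the high chromosome 11 level, and at 1914 in KO replicate 2. The part of that level in the values of Rara was not tested.

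**Figure D3:**
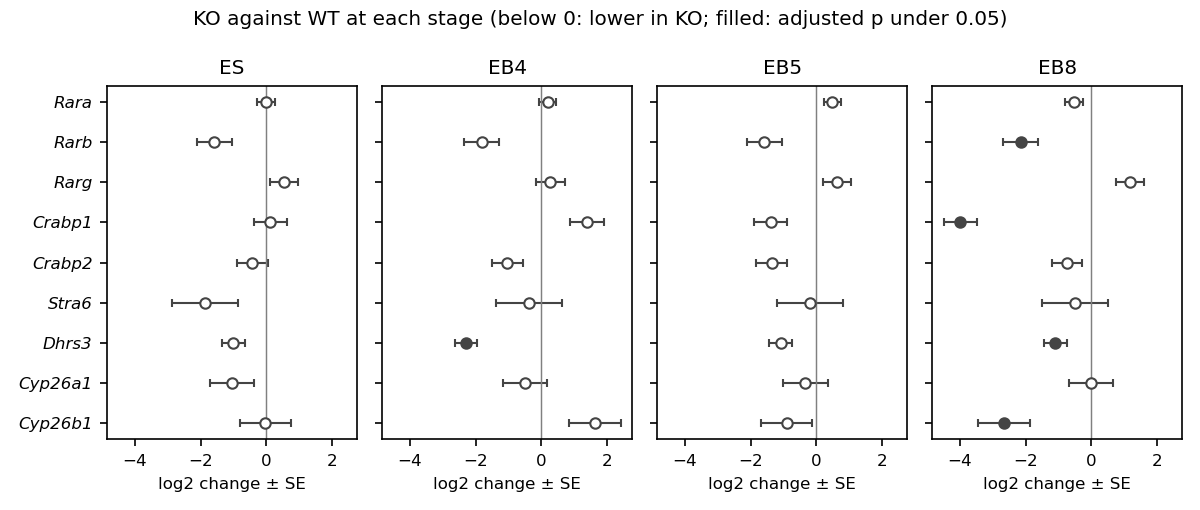
log2 change of KO against WT (normalised count + 1, horizontal, below 0 where KO is lower) with its SE for each gene at ES, EB4, EB5 and EB8, filled where the limma adjusted p was under 0.05. Dhrs3 is filled at EB4, Rarb, Crabp1, Dhrs3 and Cyp26b1 at EB8, and no gene at ES or EB5.

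Markers of cell types moved with the genotype at the same stages. Of all genes tested, 12.5% were lower and 10.4% higher in KO at EB8 (limma). The shares lower and higher were 2.17% and 2.17% at EB5, and 3.37% and 2.75% at EB4. At EB8 the summed level of 5 neural progenitor markers in the table (Pax6, Nes, Fabp7, Hes5 and Msi1) was 24373 to 27025 in WT and 4790 to 4834 in KO, 4 of the 5 were lower in KO, and Fabp7 was at or under 3 reads in both KO libraries. The sum of 6 ES markers (Pou5f1, Nanog, Zfp42, Esrrb, Klf4 and Tbx3) was 1356 to 1575 in WT and 19609 to 21966 in KO, with 5 of the 6 higher. Of 7 endoderm markers 4 were tested and 2 were lower, with sums of 1241 to 1544 in WT and 284 to 389 in KO. Of 9 embryonic fibroblast markers 8 were tested and 0 passed with limma, with sums of 2193 to 3200 in WT and 943 to 3338 in KO. In ES cells, grown on feeders, the fibroblast sums were 1059 to 2680 in WT and 215 to 512 in KO. There 0 of the 8 passed with limma, and their median log2 change was -1.81. The fibroblast sums were 893 to 1362 in WT and 482 to 510 in KO at EB4. At EB5 they were 1685 to 2302 and 1058 to 1089. At EB5 the neural sums were 16176 to 24111 in WT and 4880 to 8377 in KO, with 2 of the 5 lower. The ES sums were 6782 to 9059 and 25530 to 39285 there, with 3 of the 6 higher, and the endoderm sums 992 to 2061 and 281 to 299, with 2 of the 4 tested lower. At EB4, where Dhrs3 was lower in KO, the neural sums were 10746 to 11691 in WT and 3346 to 5379 in KO, with 1 of the 5 lower. The ES sums were 16687 to 32244 and 44059 to 57825, with 2 of the 6 higher, and the endoderm sums 359 to 874 and 139 to 256, with 1 of the 4 tested lower. The part of these shifts in the differences of the RA genes was not tested.

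The make-up of each class of genes was read from levels per kilobase of exon, as shares of the summed level of the class in a library. Among the receptors Rarg took 74.2% and 53.6% in the WT ES libraries and 67.9% and 77.1% in KO ES, with Rarb at 0.06% to 0.39%. At EB8 Rarb took 67.7% and 69.0% in WT and 31.0% and 36.2% in KO, while Rarg took 5.73% and 4.56% in WT and 21.0% and 30.2% in KO. The receptor in first place at EB8 was thus Rarb in both WT libraries, and in KO it was Rara in replicate 1 (48.1%) and Rarb in replicate 2 (36.2%). At EB5 the share of Rarb was 28.6% and 48.7% in WT, against 17.3% and 9.19% in KO.

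Of the binding proteins, Crabp2 held 96.1% to 98.2% of the pair in the 4 EB5 libraries. At EB8 Crabp1 held 40.0% and 58.3% in WT, and it stood at 12.2% and 6.85% in KO. Of the degrading enzymes, Cyp26a1 held 96.8% to 98.9% in the EB5 libraries of both genotypes. At EB8 Cyp26b1 held 39.0% and 52.9% in WT, against 8.77% and 15.9% in KO. In WT at EB8, Crabp2, Cyp26a1, Crabp1 and Cyp26b1 had mean levels of 7032, 6923, 6360 and 6244 per kilobase with overlapping libraries, and Rarb followed at 2004. In KO the order was Cyp26a1 (7235), Crabp2 (4038) and Cyp26b1 (927), with the remaining genes between 104 and 554.

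**Figure D4:**
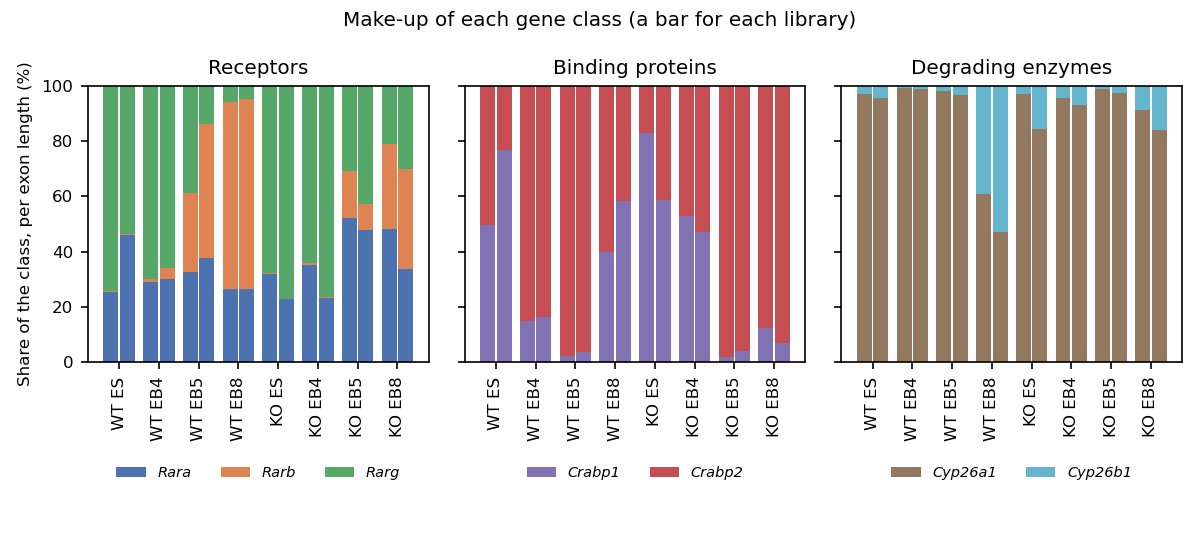
Share of each gene in the summed level per exon length of its class (vertical, %) in each library (a bar each, grouped by genotype and stage), for the receptors, the binding proteins and the degrading enzymes. Rarb, Crabp1 and Cyp26b1 take larger shares in the WT EB8 bars than in the KO EB8 bars.

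Other genes of the pathway were read from a list of 25 names for retinoid metabolism, retinoid binding, RXR and coregulators, of which 24 were in the table and 21 were tested. Over the first day of RA 4 rose in WT, against 2.59% of all genes, and 3 in KO, against 1.82%, and 0 fell (limma). Cyp26c1, the third enzyme of the family, rose by 4.22 and 5.48 on the log2 scale, and Nrip1, a corepressor of nuclear receptors, by 2.11 and 1.71. Aldh1a2, which makes RA in the early embryo, rose in WT by 2.90, from 4.38 and 10.7 counts at EB4 to 36.7 and 92.2 at EB5. In KO it had 57.2 and 94.4 counts at EB4 and 75.8 and 81.5 at EB5. Aldh1a2 was thus higher in KO at EB4, by 3.23 ± 0.61 on the log2 scale (limma adjusted p = 0.0143), and at EB5 the genotypes overlapped. The median log2 change of the list was 0.25 in WT and -0.02 in KO.

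At EB8 4 of the 21 genes of that list were lower in KO, against 12.5% of all genes, and 1 was higher, against 10.4%, with a median log2 change of -0.48 against -0.03 over all genes. Aldh1a1, an RA-forming dehydrogenase, had 13.7 and 39.4 counts in KO against 413 and 487 in WT, a log2 change of -4.20 ± 0.88 (limma adjusted p = 0.00513). Rdh10, which oxidises retinol to retinaldehyde, changed by -1.49 ± 0.44 (adjusted p = 0.0295) and Rxra, a partner of the RAR proteins, by -1.10 ± 0.30 (adjusted p = 0.0213). Ncoa3, a coactivator, was higher by 0.90 ± 0.20 (adjusted p = 0.00651).

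As a gauge of the response outside the pathway, 18 genes known to respond to RA were read in the same way, and a selection of them is named. Over the first day of RA 15 rose in WT, against 2.59% of all genes, and 13 in KO, against 1.82%, and 0 fell (limma). The median log2 change was 6.23 in WT and 4.78 in KO. With the genes at or under 3 reads in both EB4 libraries set to their lower bound (5 genes in WT and 4 in KO) it was 6.12 in WT and again 4.78 in KO. Meis2 changed by 6.09 and 4.80, Stra8 by 9.33 and 9.14 and Zfp703 by 6.75 and 6.22 on the log2 scale. Gbx2 and Hoxd4 passed in WT and not in KO, and for neither did the difference between genotypes pass (limma adjusted p = 1). Nr2f2, Tgm2 and Bhlhe40 did not pass in either genotype.

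At EB8 5 of these 18 genes were lower in KO (Foxa1, Hoxa3, Hoxb4, Hoxd4 and Nr2f1), against 12.5% of all genes, and 1 was higher, against 10.4%, with a median log2 change of -0.68. Nr2f1, an orphan receptor of the developing brain, had 949 and 571 counts in KO against 7276 and 8335 in WT, a log2 change of -3.40 ± 0.95 (limma adjusted p = 0.0226). Hoxa3 changed by -2.77 ± 0.67, Hoxb4 by -1.94 ± 0.62, Hoxd4 by -4.45 ± 0.89 and Foxa1 by -2.63 ± 0.38. Cdx1, a regulator of Hox genes, had 1398 and 1157 counts in KO against 37.8 and 102 in WT, a log2 change of 4.33 ± 0.62 (adjusted p = 0.000565).

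The genes whose pattern was most like that of each of the 9 were named by Pearson correlation of log2(normalised count + 1) over the 16 libraries, which share 8 groups and are not independent points. Meis2 (r = 0.98), 2700033N17Rik (0.98) and Zfp703 (0.98) were nearest to Cyp26a1. Letmd1 (0.99), Dach1 (0.99) and Zfp503 (0.98) were nearest to Rarb, and Cuedc1, Dgkz and Dach1 (0.98 each) to Dhrs3. Crabp2 was nearest to Egfem1, Gm12576 and Foxc1 (0.97 each), and Cyp26b1 to 2700086A05Rik, 5730446D14Rik and Gm11536 (0.97 to 0.98). Stra6 was nearest to Skap1 (0.97), Pdgfrb and Bnc1 (0.94 each), and Crabp1 to Ikzf5 (0.93), Ripply3 and Adamts20 (0.92 each). Rarg was nearest to Pcyt1b, Slc22a7 and Dlgap5 (0.94 each), and Rara had the lowest values, with Efnb1 at 0.89, Smad6 and Wnt3a at 0.86.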

How the data were processed

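Poly-A libraries were made from total RNA with the TruSeq v2 kit and sequenced from one end. Per the labels and the submitters' processing notes, the authors used CASAVA 1.7 and 1.8, aligned reads with TopHat2 2.0.10 to mm9, counted them per gene with HTSeq 0.5.4p3 and normalised with DESeq2 1.0.19. The annotation release and the strand setting are not given in the sources used here. The deposited values are a normalised signal, read numbers scaled by each library's size factor. In each library 100% of them were whole multiples of one step (tolerance 0.01), from which whole reads were recovered.

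Genes with a mean of at least 10 (16124 of 27807) were tested with limma 3.58.1 (R 4.3.3) on log2(value + 1), a scale that understates changes of low genes. A mean was fitted per group over the 16 libraries (residual df 8, prior df 4.27), with Benjamini-Hochberg adjustment and a threshold of 0.05, in 13 comparisons. Groups follow the labels. Floors of 3 reads cover counting error only. Alternatives were pseudocounts of 0.1 and 5, no filter, rescaling to the upper quartile, quantile normalisation, fits of the compared groups alone, a replicate block, edgeR 4.0.16 and DESeq2 1.42.0 on the recovered reads, and leaving out each library. Deviations of same-numbered libraries correlated by 0.233 to 0.422 over 6 pairs of KO stages, 0.523 to 0.605 over 3 pairs of WT embryoid body stages and -0.179 to -0.048 between WT ES and those stages. Hence a replicate block within genotype (KO over all stages, WT over EB4 to EB8) was added for steps between stages, after the data were seen. On those reads edgeR called 3546 genes for KO against WT at EB8 and limma on the values 3697. Levels per kilobase divide by the exon bases of GENCODE M1 (27603 of the identifiers matched), whose gene positions and the genome sequence are of build NCBI37. The 9 genes, the lists and the markers were chosen with earlier results of these data known. Genes outside the 9 were named when they were past the threshold with a log2 change of at least 1 at EB8 between genotypes or over the first day of RA, and the 3 nearest by correlation were named for each. A few genes named by it are left out here. Ncoa3 at EB8, the EB4 comparison of Aldh1a2 and the genes that did not pass were named after their values were seen.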

Additional observations from a re-analysis of the deposited data

Results flagged for a closer look

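Some genes lay on opposite sides of WT at different stages, with no overlap of the libraries at either. At EB4 the KO libraries of Crabp1 both lay above the WT libraries, and at EB5 and EB8 both lay below them. The difference of the log2 changes of KO against WT was -2.79 between EB4 and EB5 (limma unadjusted p = 0.00205, adjusted p = 1) and -5.40 between EB4 and EB8, a contrast that was not tested on its own. Cyp26b1 had the same order, with -2.54 between EB4 and EB5 (unadjusted p = 0.0405, adjusted p = 1) and -4.30 between EB4 and EB8, which was likewise not tested. Its EB4 libraries held 1 and 10 reads in WT and 14 and 10 in KO. Rara was higher in both KO libraries at EB5 and lower in both at EB8, a difference of -1.02 (limma unadjusted p = 0.0201, adjusted p = 0.355). Read along the stages, the same value, -1.02, says that Rara lay higher at EB8 than at EB5 in both WT libraries and lower in both KO libraries.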

How the results depend on the processing

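Of the 29 calls made for single genes, none changed direction under any alternative, and 334 of their 397 alternative values stayed past the threshold. In the fit of the compared groups only, 0 of the 9 genes were called for KO against WT at EB4. That fit called 0 for EB4 against ES in WT and in KO, and 5 for EB5 against EB4 in WT. Of all 16124 genes it called 0, 0, 23 and 170 in these comparisons, in the same order. DESeq2 called 3 of the 9 for KO against WT at EB4 and at EB5, and 2 for EB4 against ES in KO. It called 2 for EB8 against EB5 in KO and 1 for its difference between genotypes. Of all genes it called 2090 of 15946, 1764 of 15946, 1677 of 14868, 670 of 16485 and 499 of 16485, in the same order. A pseudocount of 0.1 gave 2 of the 9 for EB4 against ES in KO, against 575 of all 16124 genes. For EB8 against EB5 in KO a pseudocount of 5, quantile normalisation, the compared groups only and edgeR gave 1 of the 9 each. Of all 16124 genes they called 183, 208, 1 and 83. Leaving out each library in turn gave 0 to 2 calls for KO against WT at EB4, 0 to 1 at EB5 and 1 to 3 at EB8. It gave 1 to 4 for EB4 against ES in WT and 0 in KO, 5 to 8 and 4 to 6 for EB5 against EB4 in WT and KO, and 2 to 3 for EB8 against EB5 in WT. Cyp26a1, EB4 against ES in WT, turned downward without WT EB4 replicate 2 (adjusted p 0.825, log2 change -0.23) and passed without WT EB4 replicate 1 (0.0178). In each comparison listed for leaving out a library, fewer of all 16124 genes were called than with all 16 libraries. A lower count among the 9 is thus not particular to these genes. Where a group is left with 1 library, it is assumed to vary like the other groups. The cause of these changes was not tested.

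The replicate numbers share no stated origin across groups, and between WT and KO the deviations of same-numbered libraries correlated by -0.209 to 0.368 over 16 pairs of groups. With the replicate number as a block across genotypes, 1 of the 9 was called for EB8 against EB5 in KO, against 150 of all 16124 genes. It was Cyp26b1 (adjusted p 0.0288), and Rarg was lost for EB8 against EB5 in WT (0.0525). With the replicate block within genotype, 3 were called for EB4 against ES in KO and 1 for EB8 against EB5 in KO, and 5 for EB8 against EB5 in WT. Of all 16124 genes that block called 1395, 374 and 2585, in the same order. It changed no other count of calls among the 9. For KO against WT at EB8, upper-quartile rescaling took the median over all genes from -0.03 to 0.11 (log2) and the calls from 1677 higher and 2020 lower to 2278 and 1615. Counts of a few reads limit Stra6, Rarb and Cyp26b1 before RA.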
